A study of Mus musculus with 9 samples.

Results

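The cell cycle genes of the mouse retina were followed through an oxygen-induced retinopathy experiment. The 43 genes were chosen by symbol from DNA replication, mitosis, cyclins and cyclin-dependent kinases, with 3 kinase inhibitors and E2f1. Each had exactly 1 row among the 25108 rows of the expression table. Replication holds 12 of them, mitosis 15, cyclins and their kinases 12, and the inhibitors with E2f1 hold 4.

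Retinal RNA of C57BL/6 mice was sequenced at postnatal day 17 in 3 groups of 3 libraries. The OIR KO group holds IL-19 knockout mice with oxygen-induced retinopathy. The OIR WT group holds wild-type mice with the same retinopathy, and the RA WT group holds wild-type mice kept in room air. Oxygen-induced retinopathy is a mouse model of retinopathy of prematurity in which pups are kept in high oxygen, lose part of their retinal capillaries and, once back in room air, grow new and partly misplaced vessels over a hypoxic retina. Interleukin-19 is a cytokine of the IL-10 family. The labels give neither the knockout allele nor whether a library is 1 mouse or a pool. Knockout mice in room air were not analysed here, so a difference between OIR KO and RA WT carries both the genotype and the retinopathy. Il19 was listed at 0 in all OIR KO and OIR WT libraries and reached 0.0406 FPKM in RA WT 1 alone, so its level checks no label. Steps in the low values imply a relative depth between 0.853 and 1.14 of the mean library. Uty, Kdm5d, Eif2s3y and Ddx3y, which are Y-linked, were at 0 in OIR KO 1 and RA WT 2 alone, and all 4 were present in every OIR WT library. RA WT 3 had 6.80 FPKM of Ddx3y, against 12.9 to 15.7 FPKM in the 6 other libraries that had it.

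In a dividing cell, origins are licensed by loading the MCM helicase, the DNA is copied with nucleotides supplied by ribonucleotide reductase and thymidylate synthase, and cyclin B with Cdk1 then drives the cell into mitosis. Aurora and Polo-like kinases, kinesins and the spindle checkpoint proteins arrange and part the chromosomes, and Cdc20 opens the way to anaphase. In the mouse retina most neurons have left the cell cycle well before the age studied, while endothelial cells, pericytes, microglia and other glia can still divide. D-type cyclins, Cdk4 and the inhibitors Cdkn1b and Cdkn1c are also made by cells that no longer divide. In whole-tissue RNA, fewer or more cells of a type and less or more RNA per cell cannot be told apart.

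Several genes, such as Rrm2 of replication, Top2a and Mki67 of mitosis and the kinase gene Cdk1, stood far above their room-air level in both retinopathy groups. No RA WT library reached 0.5 FPKM for any of these, so they entered the test only through retinopathy libraries. Plk1, Ccna2 and Mcm7 were well expressed in room air, and for each of them both retinopathy groups overlapped with RA WT. Of the 43 genes, 40 reached the minimum level for testing (0.5 FPKM, fragments scaled to transcript length and library size, in at least 3 of 9 libraries), and Cdc6, Bub1 and Cenpf did not. In OIR KO against RA WT, 14 genes were called higher and 0 lower (limma, Benjamini-Hochberg adjusted p under 0.05), beside 4.75% of 15678 tested genes called higher and 5.69% called lower. At an unadjusted p under 0.05 the counts were 20 and 1, beside 14.1% and 13.5% of all tested genes. In OIR WT against RA WT, 17 genes were called higher and 0 lower, beside 8.04% and 7.92% of all tested genes. At an unadjusted p under 0.05 they were 22 and 0, beside 15.6% and 14.8%. All 14 were also among the 17, and Mcm4, Tpx2 and E2f1 were called in OIR WT only. The 2 comparisons share the RA WT libraries and are therefore not independent. Between OIR KO and OIR WT, 0 of 40 genes were called in either direction, beside 0.0574% of tested genes called higher and 0.0765% lower. By its unadjusted p, 1 gene, Mcm4, was under 0.05, beside 9.91% of tested genes.

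The median log2 change over the 40 tested genes was 0.45 in OIR KO against RA WT and 0.44 in OIR WT against RA WT, beside 0.02 over all tested genes in both. Some genes reached the minimum level only through the retinopathy libraries, so these counts do not stand for all 43 genes. No RA WT library reached 0.5 FPKM for 9 genes: Rrm2, Top2a, Mki67, Aurkb, Kif11, Kif20a, Tpx2, Ccnb1 and Cdk1. Of these, 6 were called higher in OIR KO and 7 in OIR WT, beside 4.75% and 8.04% of all tested genes. The share among all genes that reached the minimum in this way was not taken. Of the 27 genes at 0.5 FPKM or more in every RA WT library, 5 were called higher in OIR KO and 7 in OIR WT, beside the same 4.75% and 8.04%. Their median log2 change was 0.28 in OIR KO and 0.31 in OIR WT. Counting all 43 genes without a test, the 3 OIR KO libraries all lay above the 3 RA WT libraries in 26 genes and all below in 1 (Ccne1), beside 15.0% and 12.9% of the 21267 genes with any signal. The OIR WT libraries all lay above RA WT in 25 genes and all below in 1 (Ccne1), beside 15.4% and 14.4%.

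**Figure D1:**
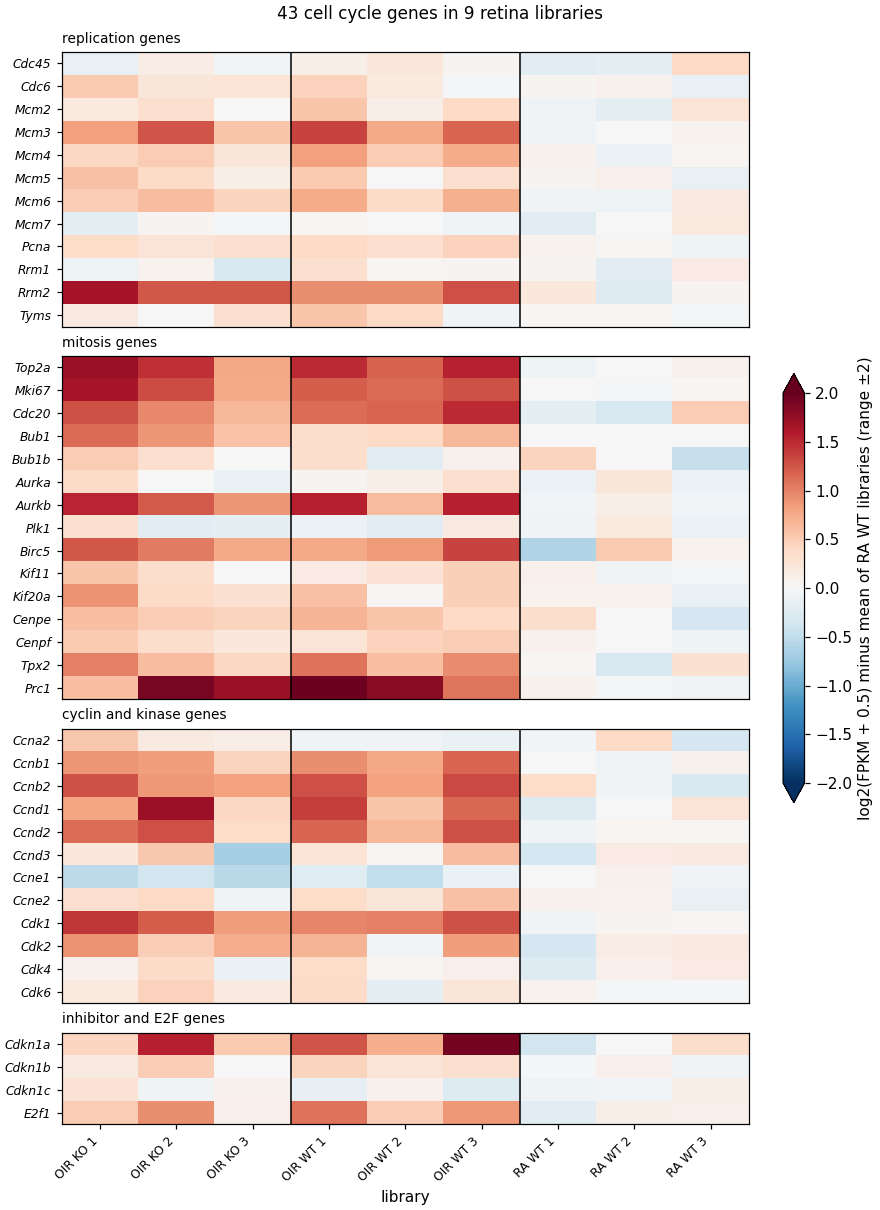
Each row is 1 of the 43 genes, grouped as replication, mitosis, cyclin and kinase, and inhibitor and E2f1 genes, and each column is 1 library; colour gives log2(FPKM + 0.5) minus the gene's mean over the 3 RA WT libraries. Top2a, Mki67, Cdk1, Prc1 and Rrm2 are high in the OIR KO and OIR WT columns, while Plk1, Mcm7 and Cdc45 show little change.

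Many promoters of these genes hold short letter motifs that the list was not chosen on. Shown here are 6 promoters, 5 of genes that were called and that of Plk1, which was not. Genes of replication often have E2F sites, and genes of mitosis often have CCAAT boxes with a cell cycle genes homology region, CHR, which are bound by NF-Y and by the DREAM and MuvB complexes. The windows, from RefSeq on GRCm38.p6, run from 250 bases before the annotated start to 50 after it, and 34 of the 43 genes had an entry. The search covered both strands for CCAAT, for the CHR written as TTTGAA or TTTAAA, and for the E2F sites TTTCCCGC, TTTCGCGC, TTTGCCGC and TTTGGCGC. Letters of a match stand in capitals below, and matches that overlap run together. Cdk1 (chr10:69352863-69353162, minus strand) and Ccnb2 (chr9:70421505-70421804, minus strand), of the cyclin and kinase genes, and Top2a (chr11:99024140-99024439, minus strand), of the mitosis genes, were called higher in both retinopathy groups. So were the replication genes Mcm6 (chr1:128359656-128359955, minus strand) and Mcm3 (chr1:20820263-20820562, minus strand). Plk1 (chr7:122159185-122159484, plus strand) has CHR motifs and was not called.
Cdk1: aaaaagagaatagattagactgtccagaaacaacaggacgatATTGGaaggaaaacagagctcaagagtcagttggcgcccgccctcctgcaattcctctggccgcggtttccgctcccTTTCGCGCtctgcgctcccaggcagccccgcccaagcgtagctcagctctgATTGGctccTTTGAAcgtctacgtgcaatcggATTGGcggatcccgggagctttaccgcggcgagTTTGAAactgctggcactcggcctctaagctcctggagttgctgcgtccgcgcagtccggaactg
Ccnb2: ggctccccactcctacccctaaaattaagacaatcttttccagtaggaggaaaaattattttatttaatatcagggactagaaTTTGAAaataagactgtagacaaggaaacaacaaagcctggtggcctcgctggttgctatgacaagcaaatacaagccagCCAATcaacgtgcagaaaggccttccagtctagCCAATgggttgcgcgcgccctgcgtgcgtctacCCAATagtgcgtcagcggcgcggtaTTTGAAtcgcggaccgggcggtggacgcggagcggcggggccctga
Top2a: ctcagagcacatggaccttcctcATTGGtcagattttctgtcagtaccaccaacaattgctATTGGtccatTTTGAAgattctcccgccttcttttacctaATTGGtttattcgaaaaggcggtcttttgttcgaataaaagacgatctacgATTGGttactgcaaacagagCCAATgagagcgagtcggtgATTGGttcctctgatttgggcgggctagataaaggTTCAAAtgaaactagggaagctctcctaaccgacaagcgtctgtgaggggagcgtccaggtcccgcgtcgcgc
Plk1: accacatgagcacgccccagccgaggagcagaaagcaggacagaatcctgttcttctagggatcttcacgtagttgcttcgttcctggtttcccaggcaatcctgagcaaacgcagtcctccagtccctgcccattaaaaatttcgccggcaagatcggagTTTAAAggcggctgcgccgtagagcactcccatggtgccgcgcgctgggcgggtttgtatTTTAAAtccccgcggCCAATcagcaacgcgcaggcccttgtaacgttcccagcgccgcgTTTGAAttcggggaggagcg
Mcm6: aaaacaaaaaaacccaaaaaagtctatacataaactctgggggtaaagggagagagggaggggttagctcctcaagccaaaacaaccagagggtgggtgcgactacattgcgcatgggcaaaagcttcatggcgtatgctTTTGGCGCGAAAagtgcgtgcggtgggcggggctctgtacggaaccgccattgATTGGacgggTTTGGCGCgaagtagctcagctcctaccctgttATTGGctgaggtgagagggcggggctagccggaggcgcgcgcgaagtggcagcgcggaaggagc
Mcm3: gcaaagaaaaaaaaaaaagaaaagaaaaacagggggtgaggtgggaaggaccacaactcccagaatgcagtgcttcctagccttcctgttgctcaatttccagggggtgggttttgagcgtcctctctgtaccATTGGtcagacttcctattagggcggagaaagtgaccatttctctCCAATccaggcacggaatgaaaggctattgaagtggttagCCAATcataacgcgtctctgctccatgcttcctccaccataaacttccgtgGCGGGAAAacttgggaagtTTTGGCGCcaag

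A gene with more than 1 window was counted once, by its highest count of each motif. A CHR was found in 4 of 11 replication genes with an entry, 11 of 12 mitosis genes, 4 of 8 cyclin and kinase genes and 1 of 3 inhibitor and E2f1 genes, beside 30.6% of the 27025 genes with windows of the same length. An E2F site was found in 5 of 11 replication genes, 0 of 12 mitosis genes, 2 of 8 cyclin and kinase genes (Cdk1 and Cdk2) and 0 of 3 inhibitor and E2f1 genes, beside 2.6% of all genes. CCAAT was present in 26 of 34 genes, or 76.5%, beside 41.1% of all genes. CCAAT at 2 or more positions together with a CHR was present in 11 of 34 genes, beside 4.1% of all genes. Tyms, Cdk4, Cdk6, Cdkn1a and E2f1 had an entry and none of the motifs in the windows searched. The windows of E2f1, Cdk6, Cdc6 and Mcm7 lie wholly inside the annotated gene. The bases before the outermost start of these genes were not searched, so the counts do not cover them. Cdk1 has all 3 motifs, with a CHR 15 bases before the start and CCAAT boxes 48, 80 and 208 bases before it. Top2a has CCAAT at 6 positions and its nearer CHR 23 bases before the start. Of the 20 genes with a CHR, 19 were tested and 9 were called higher in OIR KO and 9 in OIR WT, beside 4.75% and 8.04% of all tested genes. Of the 14 genes without one, 12 were tested and 3 were called higher in OIR KO and 4 in OIR WT. With CCAAT, 24 were tested and 11 were called higher in each comparison. Without it 7 were tested, with 1 called in OIR KO and 2 in OIR WT. With an E2F site, 6 were tested and 3 called in each. Without one 25 were tested, with 9 called in OIR KO and 10 in OIR WT. Of the called genes with a CHR, Top2a, Mki67, Cdk1, Ccnb1 and Rrm2 reached the minimum for testing through no RA WT library. The motif matches are letters in a window, not shown to be bound, and a class of genes and its motif cannot be told apart here.

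Among the 12 replication genes, Mcm3, Mcm6, Pcna and Rrm2 rose in both retinopathy groups and Mcm4 rose in OIR WT. Rrm2, the small subunit of ribonucleotide reductase, had 1.4, 0.923 and 0.927 FPKM in OIR KO, 0.649, 0.648 and 0.96 FPKM in OIR WT and 0.193, 0 and 0.124 FPKM in RA WT. Every retinopathy library was above every RA WT library, and RA WT 2 listed the gene at 0. Its log2 change was 1.39 ± 0.19 (SE; adjusted p = 0.0042) in OIR KO and 1.05 ± 0.19 (SE; adjusted p = 0.00784) in OIR WT, on the log2(FPKM + 0.5) scale, which understates the change of genes this low. Rrm1, the large subunit, was at a similar level in all groups, with 5.47 ± 0.754 FPKM in OIR KO, 6.58 ± 0.822 FPKM in OIR WT and 5.94 ± 0.872 FPKM in RA WT (SD, n = 3 each), and was not called.

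Of the MCM helicase genes, whose 6 products form 1 ring, 2 rose in OIR KO and 3 in OIR WT. Mcm3 had 1.45, 2.12 and 1.11 FPKM in OIR KO, 2.31, 1.36 and 1.97 FPKM in OIR WT and 0.545, 0.604 and 0.663 FPKM in RA WT. The lowest retinopathy library, OIR KO 3, was above the highest RA WT library. Mcm3 rose by 0.87 ± 0.21 (SE; adjusted p = 0.029) in OIR KO and by 1.09 ± 0.21 (SE; adjusted p = 0.00919) in OIR WT on the log2 scale. Mcm4 had 4.04, 4.36 and 3.54 FPKM in OIR KO, 5.54, 4.36 and 5.25 FPKM in OIR WT and 3.13, 2.64 and 3.03 FPKM in RA WT. Both retinopathy groups lay wholly above RA WT, and the log2 change was 0.38 ± 0.13 (SE; adjusted p = 0.0913) in OIR KO, which did not pass, and 0.69 ± 0.13 (SE; adjusted p = 0.00888) in OIR WT, a rise. Mcm6 had 3.02, 3.35 and 2.9 FPKM in OIR KO, 3.69, 2.77 and 3.59 FPKM in OIR WT and 1.87, 1.82 and 2.33 FPKM in RA WT, again with no overlap with room air. It rose by 0.52 ± 0.14 (SE; adjusted p = 0.0482) in OIR KO and by 0.61 ± 0.14 (SE; adjusted p = 0.0196) in OIR WT. Mcm7, the highest of the 6 per length, averaged 8.51 ± 0.744 FPKM in OIR KO, 8.76 ± 0.379 FPKM in OIR WT and 8.87 ± 1.33 FPKM in RA WT (SD, n = 3 each), and its groups overlapped. Mcm2 and Mcm5 were not called in either comparison, with log2 changes in OIR WT of 0.36 ± 0.17 (SE; adjusted p = 0.195) for Mcm2 and 0.28 ± 0.18 (SE; adjusted p = 0.327) for Mcm5.

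Pcna, the sliding clamp of the replication fork and the most abundant of the replication genes per length, had 45.2, 41.9 and 43.7 FPKM in OIR KO, 46.3, 44.1 and 48.5 FPKM in OIR WT and 36.9, 35.5 and 32.8 FPKM in RA WT. Neither retinopathy group overlapped with RA WT, and replicates lay close together. The log2 change was 0.31 ± 0.08 (SE; adjusted p = 0.036) in OIR KO and 0.40 ± 0.08 (SE; adjusted p = 0.0107) in OIR WT, a small rise in both. Tyms, thymidylate synthase, averaged 1.17 ± 0.18 FPKM in OIR KO, 1.34 ± 0.395 FPKM in OIR WT and 0.98 ± 0.0365 FPKM in RA WT (SD, n = 3 each). Cdc45, which joins the MCM ring in the active helicase, averaged 1.91 ± 0.26 FPKM in OIR KO, 2.15 ± 0.156 FPKM in OIR WT and 1.97 ± 0.623 FPKM in RA WT. Neither was called, and the groups overlapped for both. Cdc6, which loads the ring, was below the minimum for testing, with 0.502, 0.322 and 0.338 FPKM in OIR KO, 0.459, 0.299 and 0.183 FPKM in OIR WT and 0.222, 0.241 and 0.127 FPKM in RA WT. All OIR KO libraries were above RA WT and the OIR WT libraries overlapped with it. In OIR WT against RA WT the calls of Mcm3, Mcm4, Pcna and Rrm2 held without any 1 of the 9 libraries. Mcm6 lost its call there without OIR WT 1, OIR WT 3, RA WT 1 or RA WT 2 (limma adjusted p 0.0512 to 0.0829). In OIR KO against RA WT, of these genes only Rrm2, which reached the minimum only through retinopathy libraries, held without any 1 library. Mcm3 lost its call there without OIR KO 1, OIR KO 2 or any 1 RA WT library (0.0681 to 0.0919). Pcna lost its call without OIR WT 1, RA WT 2, RA WT 3 or any 1 OIR KO library (0.0635 to 0.123), and Mcm6 without any 1 of 8, all but OIR WT 2 (0.0576 to 0.147). Among 9 other settings of the fit, the OIR KO call of Mcm6 was lost under 6 (Y-linked term, median-ratio scaling, quantile normalization, no filter, pseudocount 1 and the 2 groups compared alone; adjusted p up to 0.0721). That of Pcna was lost under 2 (plain empirical Bayes and the 2 groups alone; 0.0570 to 0.0749). In OIR WT, Mcm6 lost its call with the Y-linked term (0.0535).

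**Figure D2:**
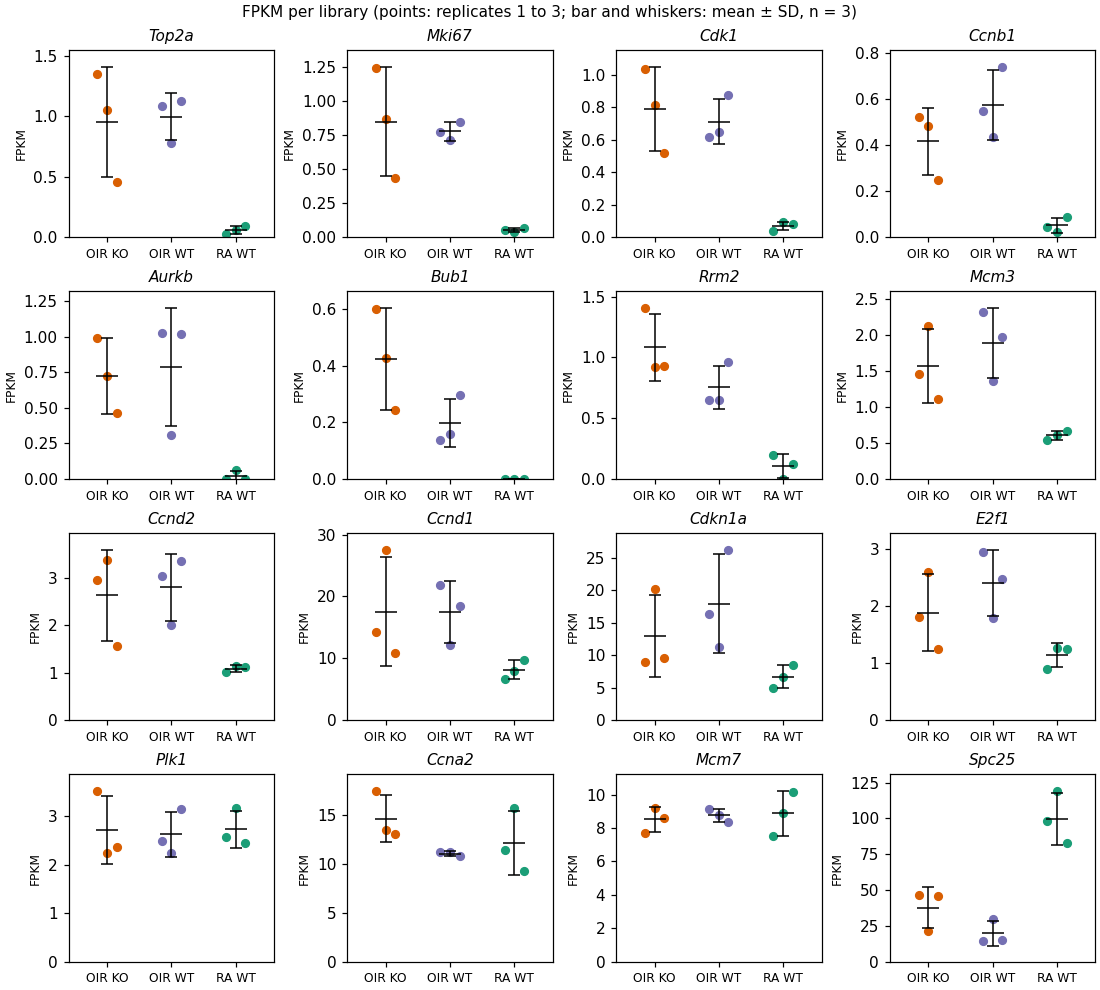
FPKM of 15 of the 43 genes and of Spc25 in each library, with OIR KO on the left, OIR WT in the middle and RA WT on the right of each panel; points are replicates 1 to 3 and the bar and whiskers are the mean ± SD (n = 3). Top2a, Mki67, Cdk1 and Ccnb1 are near 0 in RA WT, and Spc25 is higher in RA WT. For Plk1, Ccna2 and Mcm7 both retinopathy groups overlap with RA WT.

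Several mitosis genes were nearly silent in room air and clearly present in retinopathy. Of 15 genes 13 were tested, 6 rose in OIR KO (Top2a, Mki67, Cdc20, Aurkb, Birc5 and Prc1) and the same 6 with Tpx2 rose in OIR WT. The median log2 change of those tested was 0.68 in OIR KO and 0.87 in OIR WT, beside 0.02 over all genes in both, and 6 of the 13 tested genes reached the minimum through no RA WT library. Top2a, the topoisomerase that untangles replicated chromosomes (chr11:98992943-99024189 on GRCm38, minus strand), had 1.35, 1.05 and 0.461 FPKM in OIR KO, 1.09, 0.777 and 1.13 FPKM in OIR WT and 0.031, 0.0579 and 0.0967 FPKM in RA WT. All retinopathy libraries were several times above the highest RA WT library, and OIR KO 3 was the lowest of them. The ratio of mean FPKM was 15.4 in OIR KO and 16.1 in OIR WT, and the log2 change was 1.32 ± 0.23 (SE; adjusted p = 0.00974) in OIR KO and 1.41 ± 0.23 (SE; adjusted p = 0.00535) in OIR WT.

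Mki67, which codes for the chromosome-coating protein Ki-67 used to mark dividing cells (chr7:135689784-135716361, minus strand), had 1.24, 0.869 and 0.438 FPKM in OIR KO, 0.774, 0.711 and 0.843 FPKM in OIR WT and 0.0551, 0.0389 and 0.0652 FPKM in RA WT. The groups did not overlap with room air, and within OIR KO library 1 was the highest and library 3 the lowest. For Mki67 the log2 change was 1.24 ± 0.21 (SE; adjusted p = 0.00861) in OIR KO and 1.20 ± 0.21 (SE; adjusted p = 0.00659) in OIR WT. At the depth implied by the table's steps, the RA WT levels of Mki67 correspond to between about 6.9 and 15.0 fragments on its longest transcript, so the room-air level is known only coarsely. Cdc20, the activator of the anaphase-promoting complex, had 1.5, 1.1 and 0.807 FPKM in OIR KO, 1.3, 1.36 and 1.81 FPKM in OIR WT and 0.23, 0.159 and 0.67 FPKM in RA WT. The groups did not overlap, and RA WT 3 came closest. Its log2 change was 0.97 ± 0.24 (SE; adjusted p = 0.0343) in OIR KO and 1.26 ± 0.24 (SE; adjusted p = 0.00938) in OIR WT.

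The chromosomal passenger complex corrects faulty spindle attachments, and both its genes in the list rose. Aurkb, its kinase, had 0.992, 0.721 and 0.462 FPKM in OIR KO, 1.03, 0.307 and 1.02 FPKM in OIR WT and 0, 0.0615 and 0 FPKM in RA WT. In RA WT it was listed at 0 in 2 of 3 libraries, and OIR WT 2 was the lowest retinopathy library. The log2 change was 1.21 ± 0.27 (SE; adjusted p = 0.0201) in OIR KO and 1.25 ± 0.27 (SE; adjusted p = 0.0136) in OIR WT. Birc5, which codes for survivin, had 1.58, 1.3 and 0.986 FPKM in OIR KO, 0.989, 1.08 and 1.73 FPKM in OIR WT and 0.0781, 0.766 and 0.419 FPKM in RA WT. The groups did not overlap, although RA WT spread widely. Its log2 change of 1.01 ± 0.28 (SE; adjusted p = 0.0494) in OIR KO and 0.99 ± 0.28 (SE; adjusted p = 0.0413) in OIR WT lay close to the threshold. The kinases Aurka and Plk1, which act at the spindle poles and along mitosis, were not called. Aurka averaged 1.54 ± 0.383 FPKM in OIR KO, 1.64 ± 0.225 FPKM in OIR WT and 1.42 ± 0.288 FPKM in RA WT (SD, n = 3 each). Plk1 averaged 2.71 ± 0.702 FPKM in OIR KO, 2.63 ± 0.47 FPKM in OIR WT and 2.74 ± 0.385 FPKM in RA WT.

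Among spindle and midzone genes, Prc1, which bundles midzone microtubules, had 1.61, 4.68 and 4.04 FPKM in OIR KO, 4.88, 4.33 and 2.42 FPKM in OIR WT and 0.971, 0.867 and 0.818 FPKM in RA WT. All retinopathy libraries were above RA WT, with OIR KO 1 the lowest, and the log2 change was 1.41 ± 0.33 (SE; adjusted p = 0.0295) in OIR KO and 1.61 ± 0.33 (SE; adjusted p = 0.0133) in OIR WT. Prc1 shares 11.1% of its exon bases with Rccd1 on the other strand, and without a stated strand setting the reads of such a pair cannot be told apart. Tpx2, which activates Aurka on the spindle, had 1.1, 0.73 and 0.57 FPKM in OIR KO, 1.19, 0.71 and 1.04 FPKM in OIR WT and 0.309, 0.142 and 0.485 FPKM in RA WT, and no retinopathy library overlapped with room air. Its log2 change was 0.68 ± 0.22 (SE; adjusted p = 0.0789) in OIR KO, which did not pass, and 0.87 ± 0.22 (SE; adjusted p = 0.0266) in OIR WT, a rise. The difference between OIR KO and OIR WT was -0.19 ± 0.22 (SE; adjusted p = 0.829). The motor genes Kif11, Kif20a and Cenpe were not called. Kif11, which pushes the spindle poles apart, averaged 0.656 ± 0.218 FPKM in OIR KO, 0.647 ± 0.128 FPKM in OIR WT and 0.425 ± 0.057 FPKM in RA WT (SD, n = 3 each). Kif20a, a kinesin of cytokinesis, averaged 0.883 ± 0.325 FPKM in OIR KO, 0.734 ± 0.24 FPKM in OIR WT and 0.448 ± 0.0771 FPKM in RA WT. Cenpe, a kinetochore motor, had every retinopathy library above every RA WT library, with 1.03, 0.911 and 0.872 FPKM in OIR KO, 1.1, 0.973 and 0.823 FPKM in OIR WT and 0.784, 0.497 and 0.296 FPKM in RA WT. For Cenpe the log2 change was 0.51 ± 0.19 (SE; adjusted p = 0.11) in OIR KO and 0.54 ± 0.19 (SE; adjusted p = 0.0805) in OIR WT. Without RA WT 1 it was called in OIR KO (adjusted p = 0.0492) and in OIR WT (adjusted p = 0.0320).

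Neither checkpoint gene of the list was called, and only Bub1b was tested. Bub1, a kinetochore kinase, was listed at 0 in all RA WT libraries and had 0.601, 0.425 and 0.243 FPKM in the OIR KO libraries and 0.136, 0.159 and 0.295 FPKM in the OIR WT libraries, below the minimum for testing. Bub1b, which codes for the checkpoint protein BubR1, was well expressed in room air and averaged 6.45 ± 1.22 FPKM in OIR KO, 5.53 ± 1.14 FPKM in OIR WT and 5.34 ± 1.81 FPKM in RA WT (SD, n = 3 each), with overlapping groups. Cenpf, a kinetochore protein, was also below the minimum, with 0.289, 0.197 and 0.132 FPKM in OIR KO, 0.165, 0.249 and 0.268 FPKM in OIR WT and 0.078, 0.0488 and 0.0173 FPKM in RA WT. Both retinopathy groups lay above RA WT. In OIR WT against RA WT the calls of Top2a, Mki67 and Cdc20 held without any 1 library. The call of Aurkb was lost there without OIR WT 1 or OIR WT 3 (limma adjusted p 0.0526 to 0.0598), and that of Prc1 without OIR WT 1 or RA WT 3 (0.0506 to 0.0568). Tpx2 lost its call there without OIR WT 1, OIR WT 3, RA WT 1 or RA WT 2 (0.0568 to 0.102), and Birc5 without OIR KO 1, RA WT 1, RA WT 3 or any 1 OIR WT library (0.0539 to 0.136). In OIR KO against RA WT, Top2a and Mki67, which reached the minimum only through retinopathy libraries, held without any 1 library. Cdc20 lost its call without OIR KO 1, OIR KO 2, OIR WT 1, RA WT 1 or RA WT 2 (0.0512 to 0.114), and Aurkb without OIR KO 1, OIR KO 2, RA WT 1 or RA WT 3 (0.0541 to 0.0746). Prc1 lost its call there without OIR KO 2, OIR KO 3 or any 1 RA WT library (0.0653 to 0.0974), and Birc5 without any 1 of 7 libraries, all but OIR KO 3 and RA WT 2 (0.0527 to 0.144). Under other settings of the fit, the OIR KO call of Birc5 was lost with no filter, the 2 groups alone, plain empirical Bayes, pseudocount 0.1 or quantile normalization (0.0514 to 0.0751). That of Cdc20 was lost with the Y-linked term, no filter, the 2 groups alone or quantile normalization (0.0512 to 0.0654). In OIR WT, Birc5 lost its call with no filter, the 2 groups alone or pseudocount 0.1 (0.0574 to 0.0651), and Tpx2 with the Y-linked term (0.0585).

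**Figure D3:**
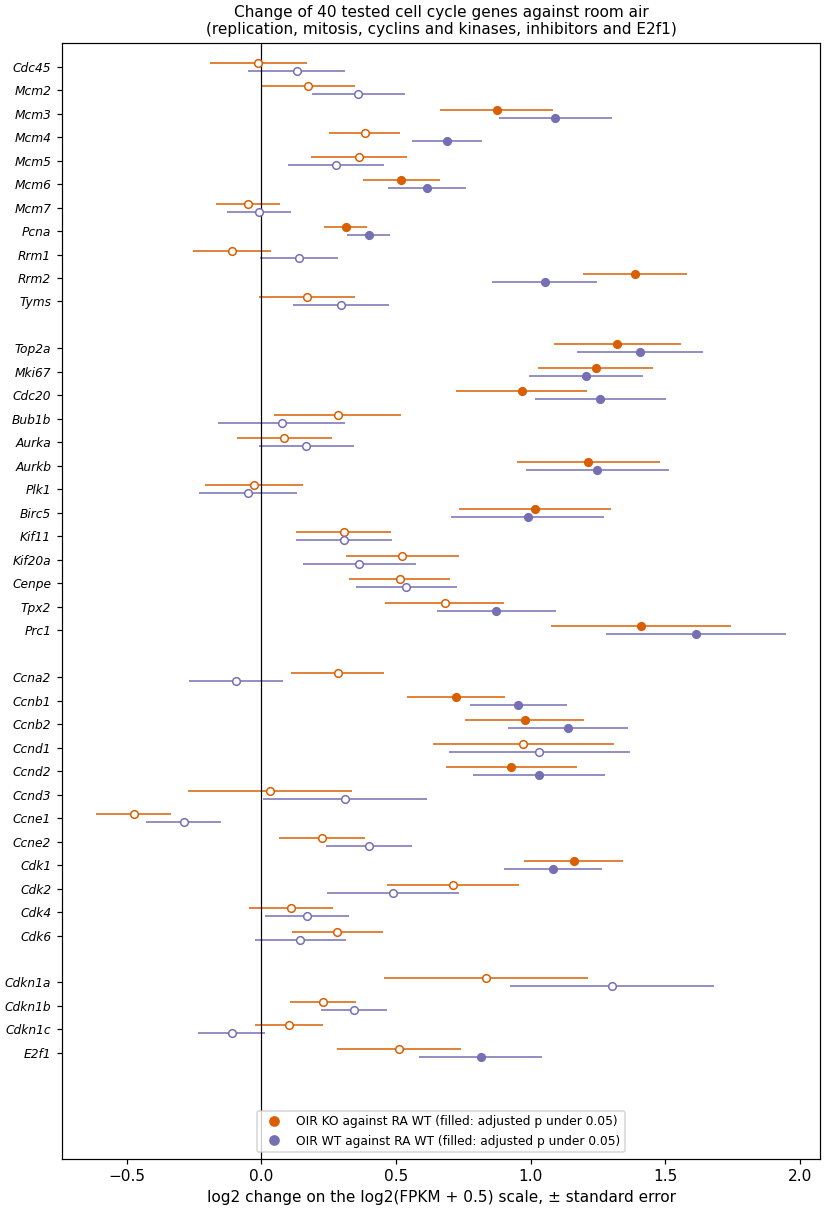
Log2 change against RA WT with its standard error for the 40 tested genes, OIR KO drawn above OIR WT for each gene and filled where the limma adjusted p was under 0.05. The filled points lie between 0.31 (Pcna, OIR KO) and 1.61 (Prc1, OIR WT), and no filled point is below 0.

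Among the 12 cyclin and kinase genes, the mitotic pair rose and the G1 kinases did not pass the test. Cdk1, the kinase that starts mitosis (chr10:69335146-69352938, minus strand), had 1.03, 0.815 and 0.52 FPKM in OIR KO, 0.617, 0.646 and 0.874 FPKM in OIR WT and 0.0399, 0.0914 and 0.0793 FPKM in RA WT. The lowest retinopathy library, OIR KO 3, was several times above the highest RA WT library. Its log2 change was 1.16 ± 0.18 (SE; adjusted p = 0.00619) in OIR KO and 1.08 ± 0.18 (SE; adjusted p = 0.00566) in OIR WT. Ccnb1, a B-type cyclin that activates Cdk1, had 0.521, 0.482 and 0.251 FPKM in OIR KO, 0.548, 0.438 and 0.741 FPKM in OIR WT and 0.0458, 0.023 and 0.088 FPKM in RA WT. Here too no retinopathy library overlapped with room air. Ccnb1 changed by 0.72 ± 0.18 (SE; adjusted p = 0.0338) in OIR KO and by 0.95 ± 0.18 (SE; adjusted p = 0.00885) in OIR WT. Ccnb2, the other mitotic B-type cyclin in the list, had 2.02, 1.39 and 1.31 FPKM in OIR KO, 2.05, 1.33 and 2.09 FPKM in OIR WT and 0.849, 0.491 and 0.347 FPKM in RA WT. It changed by 0.98 ± 0.22 (SE; adjusted p = 0.0234) in OIR KO and by 1.14 ± 0.22 (SE; adjusted p = 0.00967) in OIR WT.

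Ccna2, the S and G2 phase cyclin, had 17.5, 13.5 and 13.1 FPKM in OIR KO, 11.2, 11.2 and 10.8 FPKM in OIR WT and 11.4, 15.7 and 9.29 FPKM in RA WT. The RA WT libraries lay on both sides of the OIR WT libraries, and the gene was not called against room air. Ccna2 shares 12.5% of its exon bases with Exosc9, which averaged 11.1 FPKM over all libraries and lies on the other strand, so the share of its level that comes from Exosc9 was not tested. Of the D-type cyclins, which start the G1 phase, Ccnd2 had 2.95, 3.38 and 1.55 FPKM in OIR KO, 3.04, 2.01 and 3.34 FPKM in OIR WT and 1.01, 1.14 and 1.11 FPKM in RA WT. All retinopathy libraries were above RA WT. Ccnd2 changed by 0.93 ± 0.24 (SE; adjusted p = 0.0404) in OIR KO and by 1.03 ± 0.24 (SE; adjusted p = 0.0204) in OIR WT. Ccnd1 had 14.2, 27.5 and 10.9 FPKM in OIR KO, 21.9, 12.1 and 18.5 FPKM in OIR WT and 6.69, 7.98 and 9.78 FPKM in RA WT. It also did not overlap with room air, but OIR KO 2 stood far above the other OIR KO libraries, and the change of 0.97 ± 0.34 (SE; adjusted p = 0.103) in OIR KO and 1.03 ± 0.34 (SE; adjusted p = 0.0721) in OIR WT was not called. It was called in OIR WT without OIR KO 2 (adjusted p = 0.0146) or with the 2 groups compared alone (adjusted p = 0.0204), and in OIR KO without OIR KO 3 (adjusted p = 0.0469). Ccnd3 was the most abundant gene of the list per length, averaging 57.9 ± 22.5 FPKM in OIR KO, 67.2 ± 13.7 FPKM in OIR WT and 54.2 ± 10.8 FPKM in RA WT (SD, n = 3 each), and its groups overlapped.

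Ccne1, a cyclin of the G1 to S step, was the only gene of the 43 with every retinopathy library below every RA WT library. It had 1.56, 1.79 and 1.53 FPKM in OIR KO, 2.0, 1.59 and 2.2 FPKM in OIR WT and 2.42, 2.63 and 2.3 FPKM in RA WT. Its log2 change of -0.47 ± 0.14 (SE; adjusted p = 0.0582) in OIR KO and -0.29 ± 0.14 (SE; adjusted p = 0.195) in OIR WT was not called. Ccne1 was called lower in OIR KO under 3 other settings of the fit and without OIR WT 2. Ccne2, its paralogue, had a log2 change of 0.23 ± 0.16 (SE; adjusted p = 0.401) in OIR KO and 0.40 ± 0.16 (SE; adjusted p = 0.125) in OIR WT, in the other direction and also without a call. Cdk2, the partner of both, had 2.79, 1.96 and 2.42 FPKM in OIR KO, 2.31, 1.2 and 2.62 FPKM in OIR WT and 0.887, 1.45 and 1.49 FPKM in RA WT. For Cdk2 the log2 change was 0.71 ± 0.24 (SE; adjusted p = 0.0935) in OIR KO, where all libraries were above RA WT, and 0.49 ± 0.24 (SE; adjusted p = 0.211) in OIR WT, where they overlapped. Without OIR WT 2 it was called in OIR KO (adjusted p = 0.0437) and in OIR WT (adjusted p = 0.0427). The G1 kinases Cdk4 and Cdk6 were not called. Cdk4 averaged 23.1 ± 4.22 FPKM in OIR KO, 24.0 ± 3.0 FPKM in OIR WT and 21.3 ± 3.25 FPKM in RA WT (SD, n = 3 each), and Cdk6 averaged 2.3 ± 0.312 FPKM in OIR KO, 2.07 ± 0.516 FPKM in OIR WT and 1.79 ± 0.108 FPKM in RA WT. The calls of Ccnb1, Ccnb2 and Cdk1 in OIR WT held without any 1 library, and that of Ccnd2 was lost without OIR WT 1, OIR WT 3 or any 1 RA WT library (limma adjusted p 0.0526 to 0.0764). In OIR KO, Cdk1, which reached the minimum only through retinopathy libraries, held without any 1 library. There Ccnb1 and Ccnd2 both lost their calls without OIR KO 1, OIR KO 2, OIR WT 1 or any 1 RA WT library (0.0548 to 0.112 for Ccnb1 and 0.0583 to 0.132 for Ccnd2), and Ccnb2 without OIR KO 1, OIR KO 2, RA WT 2 or RA WT 3 (0.0536 to 0.0847). Under other settings, Ccnb1 lost its OIR KO call with the 2 groups alone or quantile normalization (0.0616 to 0.106), and Ccnd2 with the Y-linked term, no filter or the 2 groups alone (0.0530 to 0.0640).

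Of the inhibitors and E2f1, E2f1 rose in OIR WT and no other call was made. Cdkn1a codes for p21, an inhibitor induced by p53 and by other stress signals, and had 9.02, 20.2 and 9.64 FPKM in OIR KO, 16.3, 11.2 and 26.2 FPKM in OIR WT and 4.96, 6.62 and 8.55 FPKM in RA WT. Both retinopathy groups lay above RA WT, but OIR WT 3 and OIR KO 2 were far above the other libraries of their groups. Its log2 change of 0.83 ± 0.38 (SE; adjusted p = 0.196) in OIR KO and 1.30 ± 0.38 (SE; adjusted p = 0.0511) in OIR WT was not called, in OIR WT by a narrow margin. In OIR WT it was called without OIR KO 2 (adjusted p = 0.0208) and without OIR WT 2 (adjusted p = 0.0362). It was also called there with the 2 groups alone, plain empirical Bayes, pseudocount 0.1 or quantile normalization (adjusted p 0.0385 to 0.0492). Cdkn1b, which codes for p27, averaged 28.7 ± 5.03 FPKM in OIR KO, 30.8 ± 2.06 FPKM in OIR WT and 24.2 ± 1.65 FPKM in RA WT (SD, n = 3 each). Cdkn1c, which codes for p57, averaged 15.7 ± 2.09 FPKM in OIR KO, 13.5 ± 1.77 FPKM in OIR WT and 14.5 ± 1.24 FPKM in RA WT. Neither was called, although Cdkn1b was called in OIR WT without OIR KO 2 (adjusted p = 0.0342) and with the 2 groups alone (adjusted p = 0.0485). Cdkn1c shares 30.7% of its exon bases with a gene model on the other strand. In all, 8 of the 43 genes share at least 10% of their exon bases with another gene: Mcm7, Prc1, Kif20a, Ccna2, Ccnd1, Ccne2, Cdk4 and Cdkn1c. E2f1, a transcription factor of replication genes, had 1.8, 2.6 and 1.25 FPKM in OIR KO, 2.95, 1.79 and 2.46 FPKM in OIR WT and 0.89, 1.27 and 1.25 FPKM in RA WT. OIR KO 3 lay within the RA WT range, and the log2 change of 0.51 ± 0.23 (SE; adjusted p = 0.182) in OIR KO was not called. All OIR WT libraries were above RA WT, and the log2 change was 0.81 ± 0.23 (SE; adjusted p = 0.0391), a rise. The call of E2f1 was lost without OIR KO 1, OIR WT 1, OIR WT 3 or any 1 RA WT library (limma adjusted p 0.0574 to 0.143), and with the Y-linked term or no filter (0.0600 to 0.0721). The difference between OIR KO and OIR WT was -0.30 ± 0.23 (SE; adjusted p = 0.719).

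Setting OIR KO against OIR WT addresses whether the loss of IL-19 went with other cell cycle RNA levels in retinopathy, and no gene passed the test. The 40 log2 differences ran between -0.47 (Cdkn1a) and 0.38 (Ccna2) with a median of -0.09, beside 0.00 over all genes, and the smallest limma adjusted p was 0.483. Ccna2 was the only gene of the 43 whose OIR KO libraries all lay on one side of the OIR WT libraries, above them, beside 8.49% of genes with any signal that lay wholly above and 6.85% wholly below. Its difference was 0.38, with a 95% interval of -0.01 to 0.76. Mcm4 had the smallest unadjusted p, 0.0423, with a difference of -0.31 and an interval of -0.60 to -0.01. Genes often used as markers of division had differences near 0. They were -0.08 for Top2a (interval -0.61 to 0.44), 0.04 for Mki67 (-0.44 to 0.51) and 0.08 for Cdk1 (-0.33 to 0.48). Rrm2 had a difference of 0.33 (-0.10 to 0.77) and Cdkn1a one of -0.47 (-1.33 to 0.40). The signs of Top2a, Mki67 and Cdk1 turned round when a single library was left out, and those of Mki67 and Cdk1 also when a Y-linked term was added. The distance from the estimate to an end of its interval had a median of 0.40 and ran between 0.18 for Pcna and 0.86 for Cdkn1a, and the interval of 1 gene, Cdkn1a, reached a log2 difference of 1 in size. The data do not show that the genotypes act alike.

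**Figure D4:**
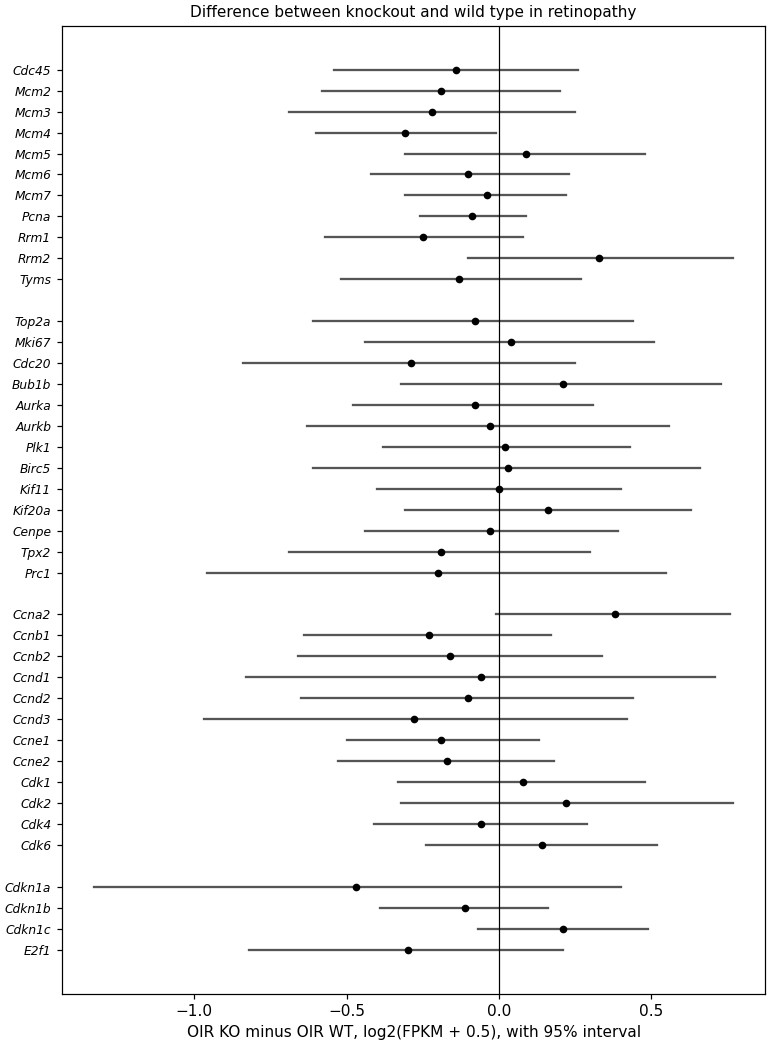
Difference between OIR KO and OIR WT on the log2(FPKM + 0.5) scale for the 40 tested genes, with 95% intervals from limma; values above 0 are higher in OIR KO. The interval of Mcm4 ends at -0.01, just below 0, and all others include 0.

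Within each retinopathy group 1 library was the lowest for most of the genes. Of the 17 genes called in OIR WT, OIR KO 3 was the lowest OIR KO library for 14, or 82.4%, and OIR WT 2 was the lowest OIR WT library for 13, or 76.5%. Over the 1261 tested genes called higher in OIR WT, these libraries were the lowest of their groups in 67.6% and 65.7%. Over the 43 genes they were the lowest for 32 and 28, or 74.4% and 65.1%, beside 34.9% and 43.8% of all 15678 tested genes. Whether the members differ in this from other genes was not tested. The median difference from the RA WT mean over the 15 mitosis genes was 0.89, 0.62 and 0.45 in the OIR KO libraries and 0.67, 0.55 and 0.67 in the OIR WT libraries, on the log2 scale. The replication genes gave 0.39, 0.30 and 0.25 in OIR KO and 0.54, 0.28 and 0.35 in OIR WT. Over all tested genes the median was between 0.00 and 0.03 in these 6 libraries.

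Wider lists of the same processes held more genes that rose than genes that fell, beside 4.75% of all tested genes called higher and 5.69% lower in OIR KO, and 8.04% and 7.92% in OIR WT. Of 37 other replication genes 35 were tested, 6 rose in OIR KO and 8 in OIR WT, and 0 fell. Asf1b, a histone chaperone of replicating chromatin, changed by 1.0 ± 0.24 (SE; adjusted p = 0.0306) in OIR KO and 1.40 ± 0.24 (SE; adjusted p = 0.00633) in OIR WT. Tk1, thymidine kinase, changed by 1.38 ± 0.25 (SE; adjusted p = 0.00993) in OIR KO and 1.05 ± 0.25 (SE; adjusted p = 0.0198) in OIR WT, and Uhrf1, which guides maintenance DNA methylation, by 0.84 ± 0.20 (SE; adjusted p = 0.0297) in OIR KO and 1.02 ± 0.20 (SE; adjusted p = 0.0105) in OIR WT. The call of Tk1 in OIR WT was lost without OIR WT 1, RA WT 2 or RA WT 3 (limma adjusted p 0.0528 to 0.0687), and in OIR KO the calls of Asf1b (0.0525 to 0.0943) and Uhrf1 (0.0563 to 0.0992) were lost without OIR KO 1, OIR KO 2 or any 1 RA WT library. Other settings also ended these OIR KO calls: no filter for Asf1b (0.0510), and the 2 groups alone or quantile normalization for Uhrf1 (0.0544 to 0.0586). The medians of the tested genes, 3 of which reached the minimum through no RA WT library, were 0.18 in OIR KO and 0.12 in OIR WT.

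Of 49 other mitosis genes 33 were tested. In OIR KO 8 rose and 1 fell, beside 4.75% and 5.69% of all tested genes. In OIR WT 8 rose and 2 fell, beside 8.04% and 7.92%. Ube2c, the ubiquitin-conjugating enzyme of the anaphase-promoting complex, changed by 1.84 ± 0.32 (SE; adjusted p = 0.00946) in OIR KO and 2.0 ± 0.32 (SE; adjusted p = 0.00483) in OIR WT. Kif14 and Kif23, kinesins of cytokinesis, both rose in OIR WT. Kif14 had a log2 change of 0.46 ± 0.28 (SE; adjusted p = 0.32) in OIR KO, which did not pass, and 1.07 ± 0.28 (SE; adjusted p = 0.0285) in OIR WT. For Kif14 the difference between OIR KO and OIR WT was -0.62 ± 0.28 (SE; adjusted p = 0.505), not called. Kif23 also rose in OIR KO, with 0.97 ± 0.23 (SE; adjusted p = 0.0277) there and 0.84 ± 0.23 (SE; adjusted p = 0.0358) in OIR WT. The kinetochore gene Spc25 went the other way, with 46.2, 21.1 and 46.1 FPKM in OIR KO, 14.6, 30.0 and 15.1 FPKM in OIR WT and 98.1, 119 and 82.8 FPKM in RA WT. Its log2 change was -1.46 ± 0.37 (SE; adjusted p = 0.0417) in OIR KO and -2.37 ± 0.37 (SE; adjusted p = 0.00596) in OIR WT, both falls, and the difference between OIR KO and OIR WT was 0.91 ± 0.37 (SE; adjusted p = 0.473). Spag5, a spindle protein, had a log2 change of -0.06 ± 0.21 (SE; adjusted p = 0.893) in OIR KO, which did not pass, and of -0.83 ± 0.21 (SE; adjusted p = 0.0257) in OIR WT, a fall. For Spag5 the difference between OIR KO and OIR WT was 0.77 ± 0.21 (SE; adjusted p = 0.278), not called. Among these, Ube2c in both groups and Spc25 in OIR WT kept their calls without any 1 library. In OIR KO, Spc25 lost its call without any 1 of 7 libraries, all but OIR KO 3 and OIR WT 2 (0.0534 to 0.103), and Kif23 without OIR KO 1, OIR KO 2 or any 1 RA WT library (0.0603 to 0.0872). In OIR WT, Kif14 (0.0510 to 0.107) and Kif23 (0.0738 to 0.122) lost their calls without OIR WT 1, OIR WT 3 or any 1 RA WT library, and Spag5 without OIR WT 1, OIR WT 3, RA WT 1 or RA WT 2 (0.0671 to 0.0974). In OIR KO, quantile normalization ended the call of Kif23 (0.0674). In OIR WT other settings ended those of Kif14 (Y-linked term, 0.0503), Kif23 (pseudocount 1 or quantile normalization, 0.0532 to 0.105) and Spag5 (Y-linked term, 0.0727). The medians of the tested genes, 6 of which reached the minimum through no RA WT library, were 0.38 in OIR KO and 0.42 in OIR WT.

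Of 48 other regulators 44 were tested, 9 rose in OIR KO and 10 in OIR WT, and 0 fell. Over all tested genes 4.75% rose and 5.69% fell in OIR KO, and 8.04% and 7.92% in OIR WT. Gadd45b, a stress-induced growth arrest gene, had the widest change, 2.19 ± 0.60 (SE; adjusted p = 0.0567) in OIR KO, which did not pass, and 3.12 ± 0.60 (SE; adjusted p = 0.0131) in OIR WT. For Gadd45b the difference between OIR KO and OIR WT was -0.94 ± 0.60 (SE; adjusted p = 0.667), not called. Cks2, a small subunit of cyclin-dependent kinases, changed by 1.18 ± 0.31 (SE; adjusted p = 0.0442) in OIR KO and 1.57 ± 0.31 (SE; adjusted p = 0.0118) in OIR WT, and Myc, a growth transcription factor, by 0.98 ± 0.25 (SE; adjusted p = 0.0377) in OIR KO and 1.31 ± 0.25 (SE; adjusted p = 0.00946) in OIR WT. Gadd45b lost its call in OIR WT without OIR WT 1 (adjusted p = 0.0511) and gained one in OIR KO without OIR KO 3 (adjusted p = 0.0275) and with plain empirical Bayes (adjusted p = 0.0451). In OIR KO, Cks2 lost its call without any 1 of 8 libraries, all but OIR KO 3 (0.0514 to 0.127), and Myc without OIR KO 2, OIR WT 1 or any 1 RA WT library (0.0571 to 0.125). With the Y-linked term, no filter or the 2 groups alone, Cks2 and Myc also lost these calls, and Cks2 with quantile normalization (0.0559 to 0.0783 for Cks2 and 0.0542 to 0.0608 for Myc). The medians of the tested genes, 1 of which reached the minimum through no RA WT library, were 0.18 in OIR KO and 0.20 in OIR WT. Between OIR KO and OIR WT, 0 genes of these 3 lists were called by limma, and 4 of the replication, 3 of the mitosis and 4 of the regulator genes had an unadjusted p under 0.05, beside 9.91% of all tested genes.

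Markers of several cell types also differed between retinopathy and room air. The counts below stand beside 4.75% of all tested genes called higher and 5.69% lower in OIR KO, and 8.04% and 7.92% in OIR WT. The rod list of 9 genes summed to 9069 to 12620 FPKM in OIR KO, 9127 to 10910 FPKM in OIR WT and 10460 to 11390 FPKM in RA WT, with 0 genes called in any comparison. These are the photoreceptor markers that the retina label calls for. The endothelial list of 12 genes summed to 140.3 to 184.1 FPKM in OIR KO, 111.1 to 148.1 FPKM in OIR WT and 85.1 to 115.4 FPKM in RA WT. In OIR KO 7 genes rose, and 5 rose and 1 fell in OIR WT. The pericyte and smooth muscle list of 11 genes summed to 86.0 to 146.7 FPKM in OIR KO, 106.5 to 159.2 FPKM in OIR WT and 45.4 to 59.8 FPKM in RA WT. Of these 4 rose in OIR KO and 7 in OIR WT. The microglia and macrophage list of 12 genes summed to 57.8 to 77.5 FPKM in OIR KO, 68.0 to 90.0 FPKM in OIR WT and 23.5 to 29.4 FPKM in RA WT. Of these 11 were tested, and 7 rose in both. OIR KO 3 and OIR WT 2 had the lowest endothelial, pericyte and microglial sums of their groups, as they did for most cell cycle genes. They were also the lowest for 67.6% and 65.7% of all tested genes called higher in OIR WT, so this ranking is not particular to these lists. The highest OIR KO library was not shared. OIR KO 2 had the highest of these sums, but OIR KO 1 was highest for 11 of the 17 cell cycle genes called in OIR WT. Over all tested genes called higher in OIR WT, OIR KO 2 was highest in 76.1% and OIR KO 1 in 17.0%. In OIR WT, library 3 had the highest of these sums and was highest for 10 of the 17.

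The list of 10 Mueller glia genes summed to 1269 to 1564 FPKM in OIR KO, 973.1 to 1244 FPKM in OIR WT and 1679 to 2158 FPKM in RA WT. In OIR KO 3 fell, and in OIR WT 6 fell and 2 rose, beside the same shares of all tested genes. The retinal progenitor list of 8 genes, 5 tested, summed to 120.4 to 134.0 FPKM in OIR KO, 112.2 to 123.1 FPKM in OIR WT and 145.2 to 152.4 FPKM in RA WT. In OIR KO 1 fell and in OIR WT 2 fell. The erythroid list of 7 genes, 5 tested, summed to 111.7 to 1070.0 FPKM in OIR KO, 511.8 to 1431 FPKM in OIR WT and 82.5 to 157.8 FPKM in RA WT. In OIR KO 0 were called, and in OIR WT 5 rose. The astrocyte list of 4 genes, 3 tested, summed to 32.3 to 182.2 FPKM in OIR KO, 54.7 to 157.5 FPKM in OIR WT and 16.1 to 26.7 FPKM in RA WT. In OIR KO 0 were called, and in OIR WT 2 rose and 1 fell. Its most abundant gene, Gfap, averaged 80.8 FPKM in OIR KO, 106.9 FPKM in OIR WT and 10.6 FPKM in RA WT, so the sum mostly follows Gfap. The lymphocyte and neutrophil list of 8 genes summed to at most 1.59 FPKM in any library. The lens sum was low in every OIR WT library. The lens list of 5 genes summed to 0.601 to 14.4 FPKM in OIR KO, 0.607 to 1.46 FPKM in OIR WT and 1.49 to 23.3 FPKM in RA WT. The pigment epithelium list of 5 genes summed to 54.6 to 103.8 FPKM in OIR KO, 31.3 to 73.2 FPKM in OIR WT and 54.5 to 89.3 FPKM in RA WT. No gene of these lists was at 0 in all 9 libraries. The part these shifts play in the cell cycle genes was not tested.

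**Figure D5:**
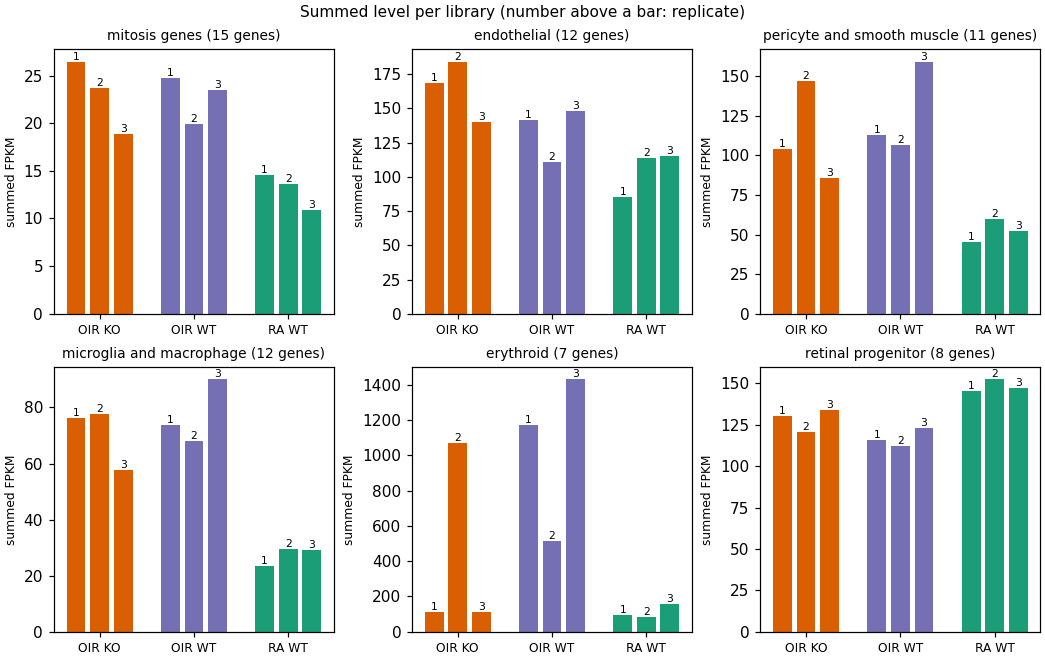
Summed FPKM per library of the 15 mitosis genes and of 5 cell marker lists, with OIR KO bars on the left, OIR WT bars in the middle and RA WT bars on the right; the number above a bar is the replicate. The mitosis, pericyte and microglia sums of both retinopathy groups lie above every RA WT library, and the retinal progenitor sums lie below.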

How the data were processed

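Total RNA of retinas was extracted with Trizol and made into libraries with the NEBNext Ultra kit, per the labels' protocols. HISAT2 and the GRCm38 genome are named in the submitters' processing notes. No label or header names the counting tool, the strand setting or whether replicates are separate animals. The p-values therefore measure only the spread between these libraries. The deposited table gives FPKM per gene, calculated by the authors, and no counts. Whole reads could not be recovered: 26.7% to 29.9% of low values in single-transcript genes lay within 0.02 of a whole multiple, so no count test was run.

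Values were taken as log2(FPKM + 0.5). Genes at 0.5 FPKM or more in at least 3 of 9 libraries were tested with limma 3.58.1 in R 4.3.3, with a mean per group over all 9 libraries, trended and robust empirical Bayes and Benjamini-Hochberg adjustment over 15678 genes. The procedure was tested on simulated data. The alternatives were other pseudocounts (0.1 and 1), filters, scalings and variance models, a fit on the 2 groups compared, a replicate block, a Y-linked term and leaving out each library. When 1 library was left out, the filter stayed as set on all 9. The members and all lists were chosen with earlier results of these data known. All members could be named; of the wider lists, up to 3 genes with the largest rise and 3 with the largest fall among those called in OIR WT against RA WT were named, with Spc25. Exon overlaps come from GENCODE M21 on GRCm38.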

Additional observations from a re-analysis of the deposited data

How the results depend on the processing

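The number of genes called higher in OIR KO against RA WT was 14. The fit on the 2 groups compared gave 8, and the replicate block gave 6, without Mcm3, Mcm6, Pcna, Cdc20, Birc5, Prc1, Ccnb1 and Ccnd2. Leaving out 1 library gave 4 (without OIR KO 2) to 14, with 5 without OIR KO 1, 8 without OIR WT 1, 7 without RA WT 1, 6 without RA WT 2 and 5 without RA WT 3. In OIR WT against RA WT it was 17. Leaving out 1 library gave 10 to 20, with 10 without OIR WT 1 and 11 without OIR WT 3, and the replicate block gave 15, without Birc5 and E2f1. Of the other genes named, Asf1b, Uhrf1, Kif23, Spc25, Cks2 and Myc lost their OIR KO calls under the block, and Kif14 and Kif23 their OIR WT calls. The cause of these drops was not tested. The number called lower in OIR KO against RA WT was 0, and was 1, Ccne1, with median-ratio scaling, with quantile normalization and with plain empirical Bayes; leaving out 1 library gave 0 to 1. No setting gave a call between OIR KO and OIR WT. All 14 calls in OIR KO and 17 in OIR WT kept their direction under every alternative in which the gene was tested. Ccnb1, with a mean of 0.349 FPKM, was not tested with the filter on the mean over 9 libraries. Between OIR KO and OIR WT, the sign turned for Top2a (-0.28 to 0.19 with 1 library left out, the highest without OIR KO 3). It also turned for Mki67 (-0.17 to 0.28 with 1 library left out, below 0 without OIR KO 1 or OIR WT 2, and -0.06 with the Y-linked term). For Cdk1 it ran between -0.06 and 0.24 with 1 library left out, below 0 without OIR KO 1, and was -0.01 with the Y-linked term. The labels do not say whether equal replicate numbers mark a shared litter or batch. Same-numbered libraries of different groups had correlations of their deviations from the group means between -0.353 and 0.134. Differently numbered libraries had correlations between -0.165 and 0.351. With 3 libraries per group these correlations cannot settle whether libraries are paired, so the block is kept as 1 of the alternatives. Depth limits the lowest genes: Top2a in room air corresponds to about 3.5 to 11.5 fragments per library, and Cdk1 to 3.8 to 7.9. These are rough estimates, taken on the longest transcript at the depth implied by steps in the low values. Each of these genes has 7 annotated transcripts, and whole reads could not be recovered.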
